A study of Mus musculus with 12 samples.

Results

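The genes of cholesterol and fatty acid synthesis were followed in murine Lin-Sca+Kit+ (LSK) bone marrow (BM) cells with and without BCR::ABL1, the fusion kinase of chronic myeloid leukaemia (CML). The set was a list of 31 gene symbols, named for their place in these pathways, and each was matched to an Ensembl identifier in the deposited counts, so that it holds 31 of the 56748 genes counted. It was divided into a sterol branch of 19 genes (7 mevalonate pathway enzymes, 11 enzymes from squalene to cholesterol and 1 sterol carrier), a fatty acid branch of 8 genes and 4 regulators. All 31 genes passed the filter on low counts and entered the test. The set was chosen with earlier results of these data known, so its shares set beside all genes are descriptive.

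Bulk RNA-seq had been made from 12 libraries of donor CD45.2+ LSK cells sorted from recipients that differ from the donor in the CD45 allele. The recipients were CD45.1 B6.SJL mice of 8 to 12 weeks, irradiated with 2 doses of 4.25 Gy and transplanted with SCLtTA/BCR-ABL double transgenic (DTG) BM, in which BCR::ABL1 is silent while tetracycline (TET) is given. Both groups therefore carried both transgenes, and both received TET during engraftment. TET was then kept in the CTRL group (BCR::ABL1-, 6 libraries) and removed for 2 weeks in the CML 2wk group (BCR::ABL1+, 6 libraries). Presence of TET and BCR::ABL1 status therefore cannot be told apart. Donor BM was a frozen pool from many DTG mice of both sexes per the study's methods, which also name recipients of both sexes. Expression is limited to cells in which the SCL-driven transactivator is active. The sample labels list every CTRL library as male and every CML 2wk library as female, so labelled sex and BCR::ABL1 status cannot be told apart. Whether the label is the sex of the sorted donor cells is uncertain. The labels do not say more of how replicates arose than that cells came from recipient mice, and the p-values measure the spread between these libraries.

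Cholesterol is built from acetyl-CoA through mevalonate, isoprenoids, squalene and lanosterol, and isoprenoids also feed ubiquinone, dolichol and protein prenylation. Transcription of most of these enzymes is driven by the sterol regulatory element binding proteins (SREBP), membrane-bound factors that the escort protein SCAP carries to the Golgi for cleavage when sterols are low, while INSIG proteins hold SCAP back when sterols are high. SREBP-2, from Srebf2, acts chiefly on sterol genes and SREBP-1c, from Srebf1, chiefly on fatty acid genes.

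Total counts were 22804754 to 41832868 per CTRL library and 16150817 to 25070105 per CML 2wk library, and mitochondrial genes took 0.816 to 1.288% and 2.258 to 2.973% of them. LSK markers were lower in CML 2wk cells for 9 of 10 genes (summed level, in CPM, which are counts scaled to the library's TMM-adjusted size, 2633 to 3046 in CTRL and 1381 to 1822 CPM in CML 2wk), including Kit at a log2 difference of -0.86, although all 10 were detected in both groups. Basophil and mast cell markers were higher for 6 of 8 genes (76.4 to 167.8 CPM summed in CTRL, 399 to 2279 CPM in CML 2wk), with Tpsb2 and Mcpt4 at 0 in at least 1 CTRL library. Stromal markers summed to 90.3 to 112.1 CPM in CTRL and to 65.2 to 86.5 CPM in 4 CML 2wk libraries, but to 951 CPM in CML 2wk 2 and 366 CPM in CML 2wk 4, and 4 of 7 tested were higher. Adipocyte markers were near 0 in both groups (1.99 to 2.54 and 2.49 to 7.40 CPM summed over 7 genes, of which the 2 that could be tested were higher, with the defining Adipoq, Plin1 and Cidec at a median of 0 in CML 2wk). Erythroid markers were lower for 6 of 7 genes (62.2 to 116.8 and 17.2 to 55.4 CPM summed), neutrophil markers for 5 of 8 (110.8 to 2417 CPM, with CTRL 4 far above the next library at 497 CPM, and 76.0 to 368 CPM) and B cell markers for 2 of 6 (30.1 to 113.4 and 26.3 to 87.4 CPM). Monocyte and macrophage markers passed for none of 8, and of 5 T and NK cell markers tested 2 were higher and 1 lower. Of 10 cell cycle genes, 5 were lower and 3 higher in CML 2wk, with Mki67 at a log2 difference of -1.38. Beside these marker counts, 29.0% of all genes tested were lower and 30.6% higher. The part of these cell type and quality differences in the results was not tested, and in bulk libraries a smaller share of cells that express a gene and less RNA per cell cannot be told apart. Library numbers ran in 3 series, CTRL 1 to 5, CML 2wk 1 to 5, and replicate 6 of both groups together. Among replicates 1 to 5, series and BCR::ABL1 status cannot be told apart. Values of the CTRL 6 and CML 2wk 6 pair are therefore given for each member that passed the test.

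The 250 bases upstream of the annotated start are shown for 5 genes on which the results turn: Msmo1 and Idi1, the sterol branch genes with the highest fold changes, Hmgcs1, at the entry of the mevalonate pathway, Srebf2 and Fasn. RefSeq sequences for build GRCm38.p6 were used, and the positions are on that build and not on the build of the counts. The windows were chr8:64733579-64733828 (minus strand), chr13:8885356-8885605 (plus strand), chr13:119690101-119690350 (plus strand), chr15:82147019-82147268 (plus strand) and chr11:120824548-120824797 (minus strand), each written 5′ to 3′ on the gene's strand. Capitals mark the CCAAT box (CCAAT, or ATTGG where it lies on the other strand) and the sterol regulatory element searched as TCACNCCAC on both strands.
Msmo1: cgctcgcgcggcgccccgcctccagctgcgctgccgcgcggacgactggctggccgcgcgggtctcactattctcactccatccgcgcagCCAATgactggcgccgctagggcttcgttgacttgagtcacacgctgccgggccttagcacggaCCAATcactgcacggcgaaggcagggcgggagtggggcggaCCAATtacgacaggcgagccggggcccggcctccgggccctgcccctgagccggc
Idi1: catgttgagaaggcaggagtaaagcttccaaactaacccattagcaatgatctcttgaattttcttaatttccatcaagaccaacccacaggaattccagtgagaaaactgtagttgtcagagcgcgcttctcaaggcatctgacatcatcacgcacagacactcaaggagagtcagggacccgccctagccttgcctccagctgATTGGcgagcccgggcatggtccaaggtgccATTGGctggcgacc
Hmgcs1: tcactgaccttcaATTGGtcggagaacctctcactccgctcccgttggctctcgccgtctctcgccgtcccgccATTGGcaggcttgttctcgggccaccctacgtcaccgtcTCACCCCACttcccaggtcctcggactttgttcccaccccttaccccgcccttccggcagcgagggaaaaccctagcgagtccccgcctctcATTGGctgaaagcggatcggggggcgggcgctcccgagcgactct
Srebf2: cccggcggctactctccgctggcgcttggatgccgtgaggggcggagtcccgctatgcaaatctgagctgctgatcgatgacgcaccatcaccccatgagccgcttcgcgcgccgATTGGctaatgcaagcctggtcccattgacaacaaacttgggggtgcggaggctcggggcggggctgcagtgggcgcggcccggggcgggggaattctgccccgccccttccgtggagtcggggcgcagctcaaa
Fasn: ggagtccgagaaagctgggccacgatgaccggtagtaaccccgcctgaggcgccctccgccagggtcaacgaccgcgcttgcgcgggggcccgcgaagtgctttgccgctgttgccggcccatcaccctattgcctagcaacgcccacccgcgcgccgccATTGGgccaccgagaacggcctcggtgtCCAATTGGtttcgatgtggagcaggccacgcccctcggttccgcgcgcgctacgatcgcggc
Msmo1 and Hmgcs1 each held 3 CCAAT boxes, Idi1 held 2 and Srebf2 held 1. In Fasn 3 were found, of which a pair on opposite strands overlapped. The Hmgcs1 window held the single TCACNCCAC match among the members, 137 to 129 bases before the start.

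RefSeq windows were found for 24 of the 31 members. A CCAAT box was present in 14 of 15 sterol branch genes, in 4 of 4 regulators and in 1 of 5 fatty acid branch genes, against 37.5% of 27025 genes with a window (33.8% of windows). The GC box GGGCGG, searched on both strands, was present in 14 of 15, 4 of 4 and 2 of 5 genes, against 35.4% of genes. The E-box CACGTG was found in 4 of 24 members (Sc5d, Hsd17b7, Dhcr7 and Insig1) against 6.86% of genes, and TCACNCCAC in 1 of 24 against 1.22%. In the sterol branch the CCAAT box was found in genes that were higher (Msmo1), lower (Dhcr7) and not called (Lss) in the comparison that follows. The background genes were not limited to those tested here, and shares among tested genes were not computed. A gene was counted if any of its windows held a match. Dhcr7, Insig2, Pmvk and Srebf1 had several windows, and in each of these genes some windows lacked a CCAAT box. Such matches are descriptions of letters, and binding was not measured.

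The comparison of CML 2wk with CTRL asked how these genes stood in BCR::ABL1+ cells. Of 19 sterol branch genes, 9 were higher in BCR::ABL1+ cells (47.4%), 2 were lower (10.5%) and 8 did not pass the test, where 30.6% of the 18438 genes tested were higher and 29.0% lower. None of the 8 fatty acid branch genes was higher and 3 were lower (37.5%), and of the 4 regulators only Srebf2 passed, as lower. In all, 15 of 31 members passed (48.4%) against 59.5% of all genes tested (edgeR quasi-likelihood test, Benjamini-Hochberg adjusted p under 0.05), so passing the test was not more frequent among the members than among genes at large. The median log2 fold change (CML 2wk over CTRL) was 0.36 in the sterol branch and -0.18 in the fatty acid branch, against 0.067 over all genes tested. The plot of fold changes by role shows all members.

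**Figure D1:**
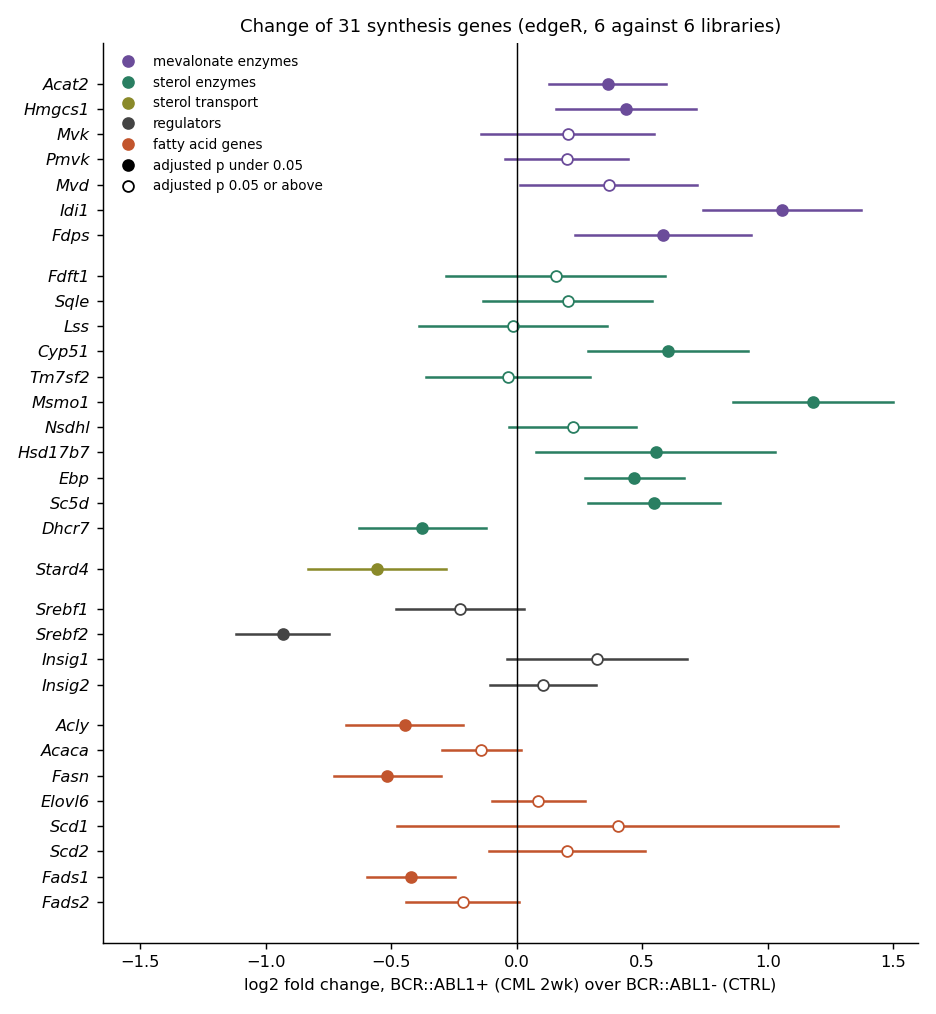
Log2 fold change of each of the 31 members in CML 2wk over CTRL LSK cells (x axis, with 95% confidence intervals from edgeR, 6 against 6 libraries), grouped by role along the y axis, with filled points where the adjusted p was under 0.05. Msmo1 (1.18) and Idi1 (1.05) lie farthest to the right and Srebf2 (-0.93) farthest to the left, and no fatty acid gene has a filled point right of 0.

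Between acetyl-CoA and farnesyl diphosphate, 4 of 7 mevalonate pathway enzymes rose (57.1%) and none fell. Over all genes tested, 30.6% were higher and 29.0% lower. The highest change was in Idi1, the isomerase that makes dimethylallyl diphosphate. Idi1 was at 7.45 to 10.4 CPM in CTRL (median 8.90) and 13.5 to 22.7 CPM in CML 2wk (median 19.1). The groups did not overlap, and the log2 fold change was 1.05 ± 0.147 (SE, n = 6 per group, adjusted p = 2.41e-05). CML 2wk 1, 2 and 3 lay together above the other 3 CML 2wk libraries, and the replicate 6 pair stood at 9.58 and 13.5 CPM. Of its 50-base words, 17.7% recur in other genes, mostly in Gm13502, which was near 0 in both groups (0.0490 and 0.0530 CPM).

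Fdps, which condenses isoprenoid units to farnesyl diphosphate, was at 4.32 to 6.00 CPM in CTRL (median 5.57) and 6.30 to 10.9 CPM in CML 2wk (median 7.46). The groups did not overlap but came close, with a log2 fold change of 0.58 ± 0.164 (adjusted p = 0.00669). Of its 50-base words, 26.2% recur in other annotated genes, so some of its reads may have been left uncounted or counted elsewhere. Most of these words lie in Gm43738, a gene that shares exons with Fdps and was at 0.0348 CPM. The replicate 6 pair was at 5.92 and 6.71 CPM.

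Hmgcs1, the cytosolic HMG-CoA synthase, was at 41.8 to 51.4 CPM in CTRL (median 47.4) and 48.4 to 85.5 CPM in CML 2wk (median 59.5). Its log2 fold change was 0.44 ± 0.131 (adjusted p = 0.0100), and the groups overlapped, since CML 2wk 3 and CML 2wk 6 lay within the CTRL range. Acat2, the thiolase of the first step, was at 17.7 to 22.1 CPM in CTRL (median 20.4) and 19.4 to 32.0 CPM in CML 2wk (median 25.7), a log2 fold change of 0.36 ± 0.109 (adjusted p = 0.0104). Its near copy Acat3 holds 39.1% of the 50-base words of Acat2 and had a log2 fold change of 1.25, so the counts of the pair are uncertain. In the replicate 6 pair neither gene was higher in CML 2wk (Hmgcs1 at 51.4 CPM in CTRL 6 and 50.4 CPM in CML 2wk 6, Acat2 at 21.1 and 19.4 CPM), and with a term for library number series both fold changes turned (-0.03 and -0.12).

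The kinases Mvk and Pmvk and the decarboxylase Mvd, which lie between these steps, did not pass. Mvk had a log2 fold change of 0.20 (95% interval -0.14 to 0.55), Pmvk of 0.20 (-0.05 to 0.44) and Mvd of 0.37 (0.01 to 0.72, adjusted p = 0.068). The intervals do not show that these enzymes stayed level while their neighbours rose.

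Among the 11 enzymes from squalene to cholesterol, 5 rose (45.5%), 1 fell (9.09%) and 5 did not pass. Of all genes tested, 30.6% were higher and 29.0% lower. Msmo1, the oxidase that starts removal of the C4 methyl groups, had the highest change of all members. It was at 14.2 to 19.1 CPM in CTRL (median 17.9) and 26.4 to 51.9 CPM in CML 2wk (median 35.1). All 6 CML 2wk libraries lay above all CTRL libraries, with a log2 fold change of 1.18 ± 0.149 (adjusted p = 9.53e-06). The replicate 6 pair differed in the same direction (17.6 and 34.8 CPM), although the test with the series term, which rests on 1 library against 1, gave 0.98 with an adjusted p of 0.0836.

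Cyp51, the lanosterol demethylase, was at 27.6 to 35.0 CPM in CTRL (median 32.6) and 35.1 to 67.6 CPM in CML 2wk (median 44.1). The ranges met without overlapping, at a log2 fold change of 0.60 ± 0.149 (adjusted p = 0.00299). CML 2wk 1 and 2 were the high libraries, and the replicate 6 pair was at 34.1 and 37.5 CPM. Cyp51 shares 3.76% of its exonic bases with Akap9 on the opposite strand, and Akap9 was lower in CML 2wk (-0.31).

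Later steps rose as well. Ebp, the sterol isomerase, was at 24.3 to 29.9 CPM in CTRL (median 26.5) and 32.8 to 45.2 CPM in CML 2wk (median 34.2), without overlap, at a log2 fold change of 0.47 ± 0.0925 (adjusted p = 0.000523). CML 2wk 6 was here the highest library (26.9 CPM in CTRL 6 and 45.2 CPM in CML 2wk 6), although it was the lowest CML 2wk library for 9 of the 19 sterol branch genes. Ebp and Nsdhl lie on chromosome X, and the groups differ in labelled sex. Sc5d, the desaturase that follows, was at 21.0 to 25.9 CPM in CTRL (median 23.6) and 26.9 to 44.7 CPM in CML 2wk (median 31.8). The Sc5d groups did not overlap either, at 0.55 ± 0.123 (adjusted p = 0.00148), and its replicate 6 pair gave 22.0 and 32.3 CPM. Hsd17b7, the keto reductase of C4 demethylation, was at 6.46 to 8.90 CPM in CTRL and 7.10 to 18.6 CPM in CML 2wk, where only CML 2wk 1, 2 and 5 exceeded every CTRL library. It passed narrowly (0.55 ± 0.223, adjusted p = 0.0439) and lost the call under 12 of 20 alternatives. In the replicate 6 pair it was at 6.98 and 7.10 CPM.

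Dhcr7, the reductase of the last step to cholesterol, moved against the others. It was at 28.0 to 34.5 CPM in CTRL (median 30.1) and 19.7 to 32.8 CPM in CML 2wk (median 21.4). CML 2wk 2 alone reached into the CTRL range, and the log2 fold change was -0.38 ± 0.119 (adjusted p = 0.0136). The replicate 6 pair stood at 30.2 and 19.7 CPM.

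The steps from squalene to lanosterol did not pass. Squalene synthase (Fdft1), squalene epoxidase (Sqle) and lanosterol synthase (Lss) had log2 fold changes of 0.15 (95% interval -0.28 to 0.59), 0.20 (-0.13 to 0.54) and -0.02 (-0.39 to 0.36). Their CML 2wk libraries spread on both sides of the CTRL range: Sqle was at 30.6 to 40.4 CPM in CTRL, but at 53.6 CPM in CML 2wk 1 and 25.3 CPM in CML 2wk 6. Fdft1 shares 18.3% of its exonic bases with Ctsb on the opposite strand, a gene that rose (0.56), so its counts are uncertain if reads were counted without strand. A further 9.38% of its 50-base words recur in Gm6781 (0.0342 and 0.0406 CPM). The sterol reductase Tm7sf2 (-0.03, -0.36 to 0.29) and the C4 dehydrogenase Nsdhl (0.22, -0.03 to 0.48) did not pass either. Tm7sf2 shares 12.1% of its exonic bases with Vps51, which was lower in CML 2wk (-0.57).

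Stard4, a cytosolic carrier that moves cholesterol between membranes, fell. It was at 101 to 116 CPM in CTRL (median 108) and 47.0 to 91.4 CPM in CML 2wk (median 79.1). No CML 2wk library reached the CTRL range, and the log2 fold change was -0.56 ± 0.129 (adjusted p = 0.00186). CML 2wk 6 was the lowest, against 111 CPM in CTRL 6.

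**Figure D2:**
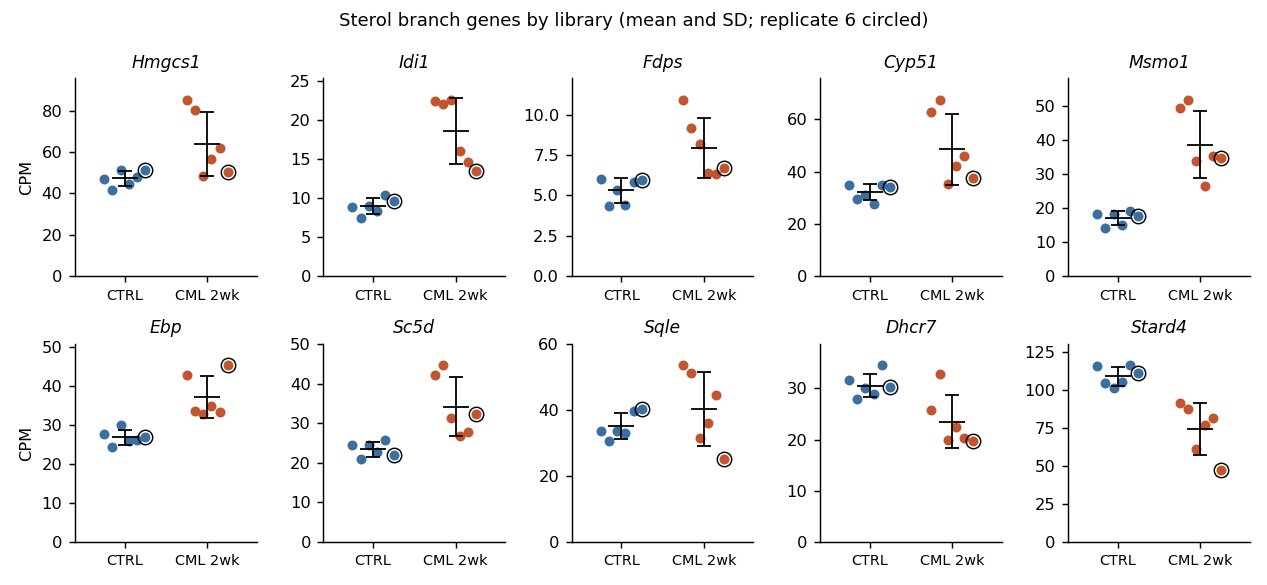
CPM of 10 sterol branch genes (y axes, each from 0) in each CTRL and CML 2wk library (points, with mean and SD as lines, n = 6 per group; replicate 6 of each group circled). Idi1, Msmo1, Fdps, Cyp51, Ebp and Sc5d show no overlap between groups with CML 2wk above, Stard4 shows none with CML 2wk below, and Sqle spreads from 25.3 to 53.6 CPM in CML 2wk.

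Groups did not overlap with CML 2wk above for 6 of 19 sterol branch genes, against 17.0% of all genes tested, and with CML 2wk below for 1 of 19, against 20.6%. Over both directions the groups of 10 of the 31 members, Srebf2 among them, did not overlap, against 37.6% of all genes tested. CML 2wk 1 and 2 were the 2 highest CML 2wk libraries for 15 of 19 genes, and CML 2wk 6 was the lowest for 9 of 19. Mean log2 CPM over the branch was 3.90 to 4.14 in CTRL and 4.05 to 4.72 in CML 2wk, with CML 2wk 6 at the bottom and within the CTRL range. The stromal and the basophil and mast cell marker sums were 86.5 and 740 CPM in CML 2wk 1 and 951 and 2279 CPM in CML 2wk 2, and their part in this order was not tested. Without CML 2wk 2 and 4, the 2 libraries with high stromal sums, 9 sterol branch genes were higher and 2 lower, with Mvk called (0.30) and Hsd17b7 not (0.42, adjusted p = 0.0531). All 31 members had a larger SD of log2 CPM in CML 2wk than in CTRL (median 0.312 and 0.129), as had 91.6% of all genes tested.

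**Figure D3:**
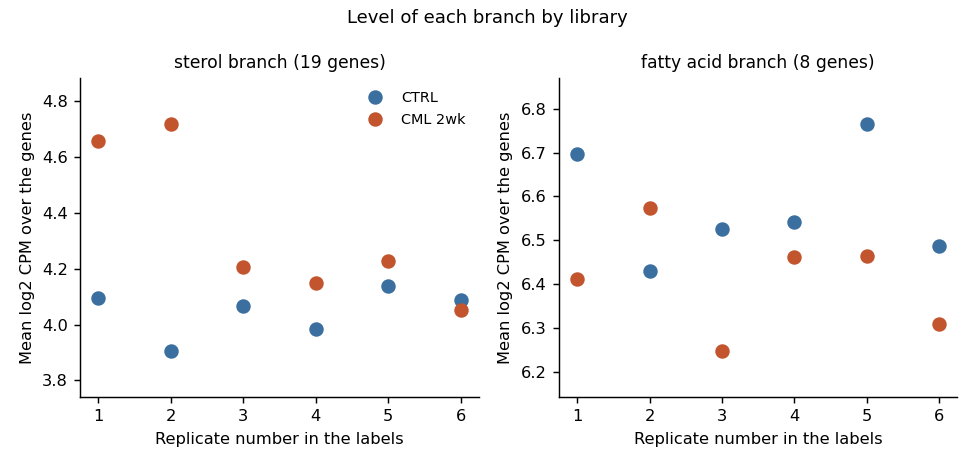
Mean log2 CPM over the 19 sterol branch genes (left) and the 8 fatty acid branch genes (right) in each library (y axis), by replicate number in the labels (x axis; numbers do not pair the groups). CML 2wk 1 and 2 stand above the rest in the sterol branch, and in the fatty acid branch the CTRL (6.43 to 6.77) and CML 2wk (6.25 to 6.57) libraries overlap.

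Srebf2, the gene of the sterol branch's main activator, was lower in CML 2wk, whereas 9 of the branch's genes were higher. Srebf2 was at 292 to 317 CPM in CTRL (median 301) and 129 to 186 CPM in CML 2wk (median 158). The groups were far apart, with means of 304.1 ± 10.5 and 159.3 ± 23.6 CPM (SD, n = 6) and a log2 fold change of -0.93 ± 0.0869 (adjusted p = 5.60e-07). The replicate 6 pair was at 303.4 and 129.2 CPM. Srebf1 was at 97.2 to 117 CPM in CTRL (median 101) and 70.3 to 119 CPM in CML 2wk (median 79.5), and did not pass (-0.23, 95% interval -0.48 to 0.03, adjusted p = 0.118). For Srebf1, CML 2wk 2 was just above the CTRL range, CML 2wk 5 within it and the other 4 CML 2wk libraries below it. Srebf1 shares 1.93% of its exonic bases with Rai1 on the opposite strand, which was lower in CML 2wk (-0.75).

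The ratio of Srebf2 to Srebf1, taken within each library, was 2.71 to 3.21 in CTRL (median 2.94) and 1.57 to 2.10 in CML 2wk (median 1.78), without overlap. The log2 ratio was 0.69 lower in CML 2wk, written as -0.69 (exact two-sided permutation test, p = 0.00216, the smallest that 6 against 6 libraries allow, and 0.00649 after adjustment over 3 ratios). The level of Srebf2 mRNA was thus lower relative to that of Srebf1 in every CML 2wk library, while the cleaved, active proteins were not measured. Srebf1 has several annotated starts, and counts per gene do not separate the transcripts from them, so Srebf1 counts are not those of SREBP-1c alone.

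Insig1, which retains SCAP and is itself a SREBP target, was at 30.2 to 38.8 CPM in CTRL (median 33.0) and 25.8 to 59.4 CPM in CML 2wk (median 38.2). It did not pass (0.32, 95% interval -0.04 to 0.68, adjusted p = 0.115), with CML 2wk 1 and 2 high at 57.5 and 59.4 CPM and CML 2wk 6 below every CTRL library. CML 2wk 1 and 2 were likewise the highest for most sterol branch genes. Without CML 2wk 6, Insig1 passed at 0.42. Insig2 was at 16.2 to 17.7 CPM in CTRL and 15.8 to 22.2 CPM in CML 2wk (0.10, -0.11 to 0.31). The log2 ratio of Insig1 to Insig2 differed by 0.17 (exact permutation p = 0.299, adjusted p = 0.448).

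Fatty acid synthesis starts with citrate cleavage by Acly and malonyl-CoA formation by Acaca, and Fasn assembles palmitate. Fasn was at 327 to 372 CPM in CTRL (median 350) and 189 to 309 CPM in CML 2wk (median 247). The groups did not overlap, at a log2 fold change of -0.52 ± 0.0992 (adjusted p = 0.000422). CTRL 6 was the highest CTRL library and CML 2wk 6 the lowest CML 2wk library (372.0 and 188.7 CPM). Acly was at 266 to 320 CPM in CTRL (median 300) and 171 to 273 CPM in CML 2wk (median 201), where CML 2wk 1 and 2 reached the lower end of the CTRL range (-0.45 ± 0.109, adjusted p = 0.00265). Its replicate 6 pair was at 299.7 and 194.1 CPM. Acaca did not pass (113 to 137 and 102 to 129 CPM, log2 fold change -0.14, 95% interval -0.30 to 0.02), and 30.4% of its 50-base words recur elsewhere, mostly in Gm5182.

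The products are then lengthened by Elovl6 and desaturated by Scd1 and Scd2, whereas Fads1 and Fads2 act on polyunsaturated fatty acids. Fads1, a desaturase of polyunsaturated fatty acids, was at 75.3 to 90.9 CPM in CTRL (median 83.9) and 52.3 to 69.7 CPM in CML 2wk (median 64.1). The groups did not overlap, at -0.42 ± 0.0823 (adjusted p = 0.000477), and the replicate 6 pair was at 83.3 and 52.3 CPM. Fads2, its partner desaturase, was at 62.3 to 78.6 and 49.6 to 74.7 CPM and did not pass (-0.22, 95% interval -0.44 to 0.01, adjusted p = 0.089). Elovl6 (0.09, -0.10 to 0.27) and Scd2 (0.20, -0.11 to 0.51) did not pass.

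Scd2 and Scd1 encode related stearoyl-CoA desaturases and sat at opposite ends of the set. Per kb of exonic sequence, Scd2 was at 67.6 ± 8.15 CPM in CTRL and 77.7 ± 21.0 CPM in CML 2wk, whereas Scd1 was at 0.608 ± 0.264 and 0.806 ± 0.554 CPM (SD, n = 6). Scd1 had the fewest counts of the members (26 to 201 per library) and a wide error (log2 fold change 0.40, 95% interval -0.48 to 1.28), with CML 2wk 4 at 8.52 CPM and CML 2wk 6 at 5.77 CPM above every CTRL library (1.36 to 4.92 CPM). Leaving out CML 2wk 2 and 4 turned its fold change to -0.03. Scd2 to Scd1 did not differ as a ratio beyond its spread (log2 difference -0.08, exact permutation p = 0.870). The pair shares few sequences, 4.56% of the 50-base words of Scd1 and 3.97% of those of Scd2 being found in other genes, Scd3 and Scd4 included.

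In the fatty acid branch the groups did not overlap with CML 2wk below for 2 of 8 genes (Fasn and Fads1), against 20.6% of all genes tested, and for none with CML 2wk above.

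**Figure D4:**
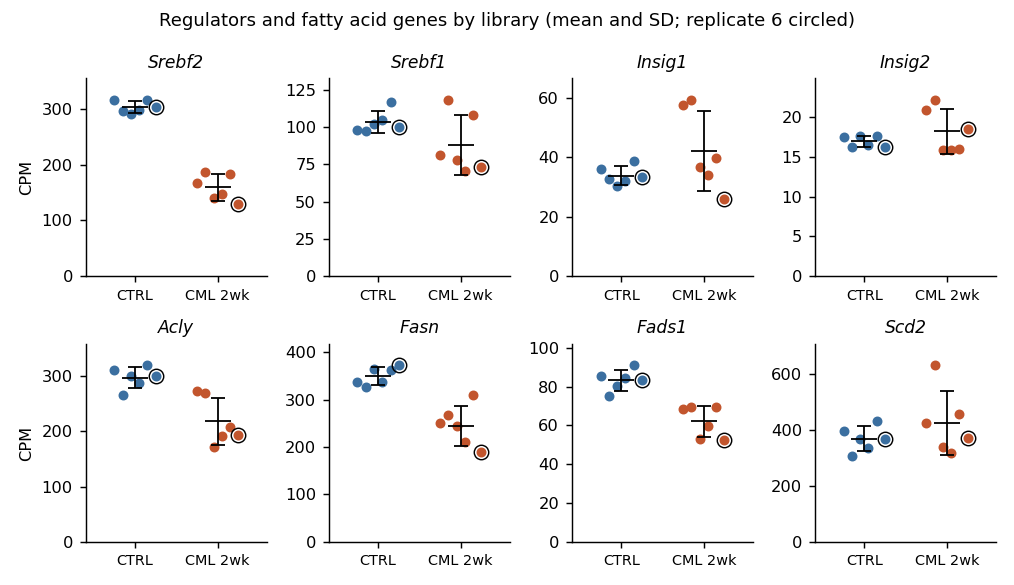
CPM of 4 regulators (top) and 4 fatty acid branch genes (bottom; y axes from 0) in each CTRL and CML 2wk library (points, with mean and SD as lines, n = 6 per group; replicate 6 circled). Srebf2, Fasn and Fads1 lie lower in CML 2wk without overlap, whereas Srebf1, Insig1, Insig2, Acly and Scd2 overlap between groups.

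By length-corrected level in CTRL, Scd2 was followed by Acly (56.3 CPM per kb), Srebf2 (42.3) and Fasn (32.0). Sterol enzymes were lower, from 1.17 CPM per kb for Tm7sf2 and 1.26 for Fdps to 10.3 for Hmgcs1 and 11.6 for Ebp, and Stard4 was at 19.5. In CML 2wk cells Acly was at 41.3, Fasn at 22.4 and Srebf2 at 22.2 CPM per kb, and Ebp at 16.0 and Hmgcs1 at 13.9. Exonic length was summed over all annotated transcripts of a gene, which lowers the level of genes with long, rarely used exons. The level of Fdps would also be too low if reads in the sequence it shares with other genes were left uncounted.

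Replicates 1 to 5 and the replicate 6 pair gave the same direction for the members that passed, other than Acat2 and Hmgcs1, but not the same size. Without replicate 6, Msmo1 (1.22), Idi1 (1.16), Cyp51 (0.69), Srebf2 (-0.87), Fasn (-0.43) and Stard4 (-0.44) kept direction, and 10 sterol branch genes were higher and 2 lower. In the pair, Srebf2 (-1.23), Stard4 (-1.24) and Fasn (-0.98) differed more than that, and Idi1 (0.49) and Cyp51 (0.14) less. Among members that did not pass, Sqle (0.36 and -0.67), Insig1 (0.43 and -0.36) and Lss (0.12 and -0.81) differed in sign between these sets. So did Fdft1 (0.29 and -0.68), Tm7sf2 (0.041 and -0.43), Elovl6 (0.14 and -0.16) and Pmvk (0.25 and -0.0077). With the series term, 5 of the 15 called members were still called, namely Srebf2, Stard4, Fasn, Fads1 and Ebp, so 1 sterol branch gene was then higher.

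**Figure D5:**
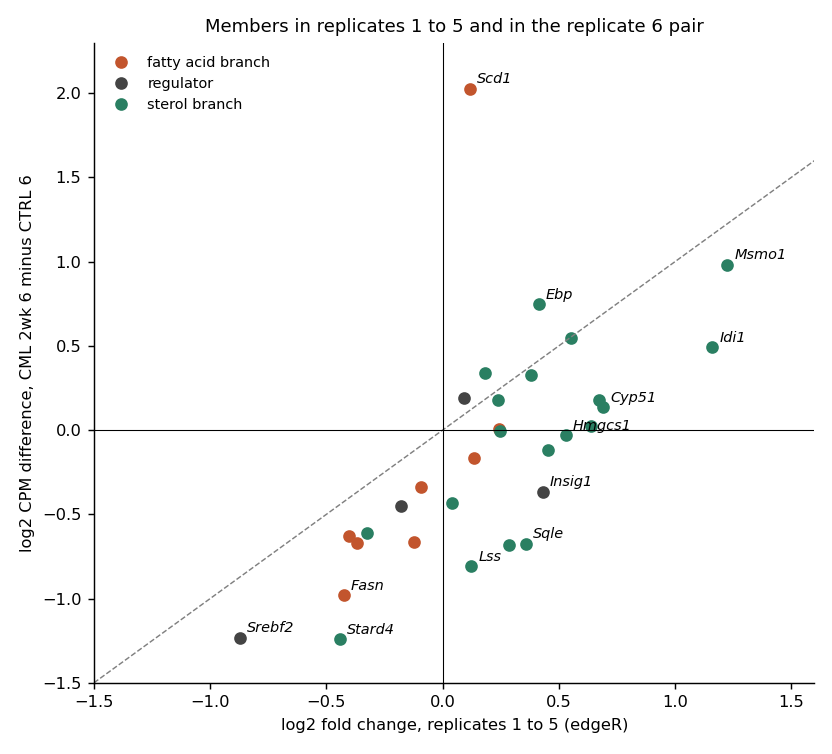
Log2 fold change of the 31 members over replicates 1 to 5 (x axis, edgeR) against the log2 CPM difference between CML 2wk 6 and CTRL 6 (y axis, 1 library each), with the dashed line marking equal values. Most sterol branch points lie below the line. Sqle and Lss, among others, have opposite signs on the axes, and Srebf2, Stard4 and Fasn are negative on both.

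Neighbouring pathways were read from lists drawn up by function, with earlier results of these data known. Over all genes tested, 30.6% were higher and 29.0% lower. Of 8 genes that process SREBP, 3 rose (37.5%) and 4 fell (50%), Scap among the latter (96.5 to 106 CPM in CTRL, 59.2 to 75.0 CPM in CML 2wk, log2 fold change -0.53 ± 0.0627, adjusted p = 5.11e-06). Of 14 genes that use isoprenoids, 5 rose and 5 fell (35.7% each). Pdss1, which makes the ubiquinone side chain, was at 19.8 to 22.5 CPM in CTRL and 36.8 to 43.2 CPM in CML 2wk (0.95 ± 0.0638, adjusted p = 4.87e-08), while the farnesyltransferase subunit Fntb (-0.52) and the prenylcysteine methyltransferase Icmt (-0.51) fell.

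Of 13 genes of sterol efflux, uptake and esterification, 4 rose (30.8%) and 3 fell (23.1%). These shares were near or under those over all genes tested (30.6% higher and 29.0% lower). Tmem97, an NPC1-binding membrane protein and SREBP target, was at 18.9 to 25.7 CPM in CTRL and 43.2 to 65.0 CPM in CML 2wk (1.20 ± 0.103, adjusted p = 2.91e-07). Nr1h2, the sterol sensor LXR-beta, was at 62.9 to 71.9 CPM in CTRL and 28.2 to 41.4 CPM in CML 2wk (-1.01 ± 0.0827, adjusted p = 1.88e-07). Of 21 other genes of fatty acid synthesis and activation, 12 rose (57.1%) and 5 fell (23.8%), where 30.6% of all genes tested were higher and 29.0% lower. By count, this list went mostly the other way from the 8 genes of the fatty acid branch, of which 0 rose and 3 fell. It mixes cytosolic synthesis with mitochondrial synthesis, elongation and acyl-CoA activation, which were not tested apart. Slc25a1, which carries citrate out of mitochondria (-0.54), and Mid1ip1, a partner of acetyl-CoA carboxylase (-0.27), were among the 5 that fell. Acacb (-0.32) and Me1 (0.93) did not pass. Acss2, which makes cytosolic acetyl-CoA from acetate, was at 27.0 to 33.6 CPM in CTRL and 11.2 to 18.5 CPM in CML 2wk (-1.06 ± 0.113, adjusted p = 1.85e-06).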

How the data were processed

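Raw read counts per Ensembl gene (56748 genes, 1 table per library) were deposited by the authors for 6 CTRL and 6 CML 2wk libraries of sorted CD45.2+ LSK cells. Total RNA libraries had been made with the Kapa RNA HyperPrep kit. The submitters' processing notes list FastQC 0.11.9, fastp 0.23.2, STAR 2.7.10a, featureCounts 2.0.1, DESeq2 1.36.0 and build GRCm39 (mm39), whereas the study's methods name other trimming and alignment tools and a human build for bulk RNA-seq. Whether counting used strand, and how multi-mapped reads were handled, is not given in the sources used here, so genes with close copies or overlapping neighbours are uncertain. 0 entries named no gene, and 52073 identifiers were matched to a symbol. Human BCR::ABL1 was not counted.

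Counts were tested with edgeR 4.0.16 in R 4.3.3 (quasi-likelihood test, TMM factors, filterByExpr), CML 2wk against CTRL, over 18438 genes, adjusted by Benjamini-Hochberg and called at 0.05. SE was derived from the F statistic, CPM used TMM-scaled library sizes, and log2 CPM used a prior count of 2. Ratios of 2 genes were compared with exact two-sided permutation tests (scipy 1.17.1, Python 3.11.15). On simulated counts 56 of 89 genes changed by log2 1 and 102 of 111 changed by log2 2 were called, of 18152 genes. Far fewer genes were changed there than were called in the data, and none by less than log2 1. The simulated shares therefore do not carry over to the smaller changes of most members. DESeq2 1.42.0, other scaling factors, no filter, a replicate block, a term for library number series and leaving out libraries were alternatives. The lowest chi-square per degree of freedom between 2 libraries of a group was 4.072, so none was a duplicate. Lengths, overlaps and shared 50-base words came from GENCODE M21 (GRCm38) and promoters from RefSeq (GRCm38.p6).

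The members and lists were chosen with earlier results of these data known. All 31 members were named. Of each other pathway list, at most 4 genes were named, those with the largest absolute log2 fold change among genes that passed with a mean log2 CPM no lower than 1 and an absolute log2 fold change of at least 1 (0.5 where none reached 1). Kit, Mki67, marker genes at 0 and the main genes that share sequence with a member were named beside the results they touch. Slc25a1, Mid1ip1, Acacb and Me1 were named outside this rule, as genes close in function to the fatty acid branch.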

Additional observations from a re-analysis of the deposited data

Results flagged for a closer look

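In 74 groups of 6 libraries, 1 value stood apart from its group by Dixon's criterion, where about 3.7 are expected by chance. The log2 ratio of Insig1 to Insig2 was 0.478 in CML 2wk 6, and the nearest of the other 5 CML 2wk libraries was at 1.10. The same library had the lowest Insig1 level of all 12 libraries (25.8 CPM), while its Insig2 level of 18.5 CPM was within the CML 2wk range.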

How the results depend on the processing

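Of the 15 called members, 5 (Srebf2, Stard4, Fasn, Fads1 and Ebp) kept their call under all 20 alternatives, and 14 under all but the series term, the exception being Hsd17b7. Of the 16 others, 9 passed under at least 1 alternative. With the series term, which rests on CTRL 6 against CML 2wk 6 and assumes that lone libraries vary like the rest, 1 sterol branch gene was higher and 1 lower, whole-table calls fell from 10976 to 4644, and Acat2 (-0.12), Hmgcs1 (-0.029), Pmvk (-0.0077), Fdft1 (-0.69), Sqle (-0.68), Insig1 (-0.37) and Elovl6 (-0.16) reversed. Without a filter on low counts 5 fatty acid branch genes were lower. Upper-quartile factors gave 12 sterol branch genes higher (Pmvk, Mvd and Nsdhl added), reversed Lss (0.055) and Tm7sf2 (0.039) and shifted the median of all genes to 0.141. Without replicate 6 of both groups 1 regulator (Insig1) was higher, Lss (0.12) and Tm7sf2 (0.041) reversed, the log2 ratio difference of Insig1 to Insig2 passed (0.32, exact permutation adjusted p = 0.0238), and that of Scd2 to Scd1 reversed (0.30). Without CML 2wk 2 and 4, a choice made after seeing the data, 2 regulators were lower (Srebf1 and Srebf2), and Fdft1 (-0.077) and Scd1 (-0.033) reversed. The cause of these changes was not tested.

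Leaving out 1 library at a time gave 8 to 10 sterol branch genes higher and 2 lower, 0 fatty acid branch genes higher and 3 to 5 lower (5 without CML 2wk 5), 0 to 1 regulators higher (1 without CML 2wk 6) and 1 to 2 lower (2 without CML 2wk 2 or CML 2wk 5). The log2 ratio differences ranged from -0.73 to -0.65 for Srebf2 to Srebf1, from 0.11 to 0.31 for Insig1 to Insig2 (adjusted p = 0.00974 in an exact permutation test without CML 2wk 6) and from -0.31 to 0.26 for Scd2 to Scd1 (0.11 without CTRL 6 or CML 2wk 6 and 0.26 without CML 2wk 4). Lss ranged from -0.21 to 0.074, Tm7sf2 from -0.11 to 0.024 and Fdft1 from -0.073 to 0.26.

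Replicate numbers are shared by the groups, but same-numbered libraries did not deviate together (correlations -0.125 to 0.0679, 1 of 6 libraries highest with its own number), so the numbers do not pair them. A fit with replicate as a block called 9975 genes, 8 sterol branch genes higher and 2 lower, 3 fatty acid branch genes lower and 1 regulator lower. In the block the log2 ratio of Srebf2 to Srebf1 differed by -0.69 (exact permutation p = 0.03125, the smallest that 6 pairs allow, adjusted p = 0.09375).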
